A study of Mus musculus with 768 samples.

Results

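The 86 genes for the proteins of the cytosolic ribosome were followed in single Schwann cells, which ensheath and myelinate peripheral axons, of mouse pups at postnatal day 5. They were the protein-coding genes of the deposited table whose GENCODE vM21 symbol begins with Rpl or Rps, without the Rps6k kinases and without names that contain -ps, 86 of 25700 genes in all. Of these, 52 carried an Rpl symbol, for the large (60S) subunit, and 34 an Rps symbol, for the small (40S) subunit. Of the 86 genes, 77 encode structural proteins of the ribosome that most cells use. The other 9 were Rpl3l, Rpl7l1, Rpl10l, Rpl22l1, Rpl36al, Rpl39l, Rps27l and Rps27rt, which are paralogs or copies, and Rps19bp1, which encodes a partner of the Rps19 protein and not a subunit.

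The pups were P0Cre-/+: ReYFP Tg/+: βAct-DsRed Tg/+. P0Cre is a Cre recombinase active in the Schwann cell lineage. It switches on eYFP in these cells, while DsRed is driven by the β-actin promoter in most cells. Sciatic nerves gave eYFP-positive cells, each sorted to a well of its own on 2 plates with 384 positions. The libraries were made by Smart-Seq2, which covers whole transcripts and has no molecular identifiers. Each plate came from its own suspension, pooled from male and female mice, so single animals cannot be told apart and the number of replicates is 2. There was no untreated or mutant group, and the comparisons below are between states of the same sorted population.

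The gene reads per well ranged from 169 to 2495101. Wells with at least 1500 detected genes that were not plate corners were retained, 325 on plate 1 and 330 on plate 2, 655 in all. They were divided by genes outside the family. A well was cycling if at least 3 of 10 mitotic genes had 5 or more reads. Other wells were immature below 10 CPM (reads scaled to a total of 1e+06 gene reads) of Ncmap, a myelin gene, and intermediate when Ncmap was at or above this level but Pmp22, a main component of compact myelin, was below 30000 CPM. Remaining wells were myelinating. Plates 1 and 2 gave 32 and 25 cycling, 106 and 122 immature, 79 and 70 intermediate and 108 and 113 myelinating wells. Reads were summed per state and plate, and the 8 sums, of 13925435 to 98479212 reads, were compared. The states are therefore ranges on 2 myelin genes and a mitotic list, not sorted populations. A list of 6 Schwann cell markers was detected in 652 of 655 wells, with at least 5 reads of at least 3 genes. Endothelial, immune, pericyte, neuron and skeletal muscle lists were found in 0 of 655, which allows up to 0.458% of wells (counting error only).

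Ribosomal proteins assemble on ribosomal RNA in the nucleolus, with each protein present in about a single copy per ribosome apart from the acidic proteins of the stalk. Their mRNAs begin with a cytosine followed by a run of pyrimidines, the terminal oligopyrimidine (TOP) motif, through which mTORC1 and the La-related protein LARP1 set their translation and stability. In Schwann cells, mTORC1 activity is known to be high before myelination and to decline as myelin is made, and myelinating cells devote much of their mRNA to a small number of myelin proteins. An mRNA level does not give the amount of ribosomes or the rate at which the mRNA is translated.

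The windows around the RefSeq transcription starts show how unequal the pyrimidine runs within them were. They are shown for genes on which the comparisons below turn: Rpsa, Rps3a1, Rpl27a and Rpl13, which fell in myelinating cells (the called genes with a RefSeq window). Rps16, Rps25 and Rpl22l1 lay at the upper edge of the family's range in myelinating against immature cells. Rps27l lay near the upper edge in cycling against immature cells only. Each window runs 5′ to 3′ on the gene's strand over 30 bases before and 30 bases from the RefSeq start (GRCm38.p6), with the longest run of C or T in capitals.
Rpsa, chr9:120127736-120127795, plus strand: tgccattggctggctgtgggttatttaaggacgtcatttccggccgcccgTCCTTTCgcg
Rps3a1, chr3:86142639-86142698, minus strand: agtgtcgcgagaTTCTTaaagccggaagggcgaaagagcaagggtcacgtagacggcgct
Rpl27a, chr7:109519165-109519224, plus strand: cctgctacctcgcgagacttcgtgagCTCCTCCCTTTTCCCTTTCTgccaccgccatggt
Rpl13, chr8:123102320-123102379, plus strand: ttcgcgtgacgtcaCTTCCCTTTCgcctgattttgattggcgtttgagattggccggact
Rps16, chr7:28350659-28350718, plus strand: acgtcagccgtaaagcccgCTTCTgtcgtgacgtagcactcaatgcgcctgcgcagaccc
Rps25, chr9:44407684-44407743, plus strand: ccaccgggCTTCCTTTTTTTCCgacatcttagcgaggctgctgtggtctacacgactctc
Rpl22l1, chr3:28805478-28805537, plus strand: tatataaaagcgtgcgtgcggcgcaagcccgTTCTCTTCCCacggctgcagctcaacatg
Rps27l, chr9:66946056-66946115, plus strand: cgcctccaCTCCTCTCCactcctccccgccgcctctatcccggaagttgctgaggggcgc

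The longest run was 20 bases in Rpl27a, 14 in Rps25, 10 in Rpl13 and Rpl22l1, 9 in Rps27l, 7 in Rpsa and 5 in Rps3a1 and Rps16. Another RefSeq window of Rps27l, not shown, had a longest run of 5. Within these windows, long and short runs stood both among the called genes and among Rps16, Rps25 and Rpl22l1. In Rpsa, Rps3a1, Rpl27a, Rps16, Rps25 and Rpl22l1 the outermost GENCODE start lay upstream of the whole window, so a run there would be missed. RefSeq windows were matched for 66 of the 86 genes. In these, a run of 8 or more C or T within the 60 bases was present in 35 of 66 genes (53.0%), against 25.8% of 27025 genes. A gene with several windows was counted, here and for the motifs below, if any of them matched. These 27025 were all genes with a RefSeq window, not matched to the family for coding type or expression. Over the 250 bases before and 50 from the start, CTTTCC on the sense strand was found in 27 of 66 (40.9%) against 16.01% of all genes. CCGGAAG, the core bound by ETS and GABP factors, was found on either strand in 26 of 66 (39.4%) against 9.93%, and AAGATGG, part of the YY1 site, on either strand in 10 of 66 (15.2%) against 7.28%. TATAAA on the sense strand was at 9.09% against 9.77%. These are matches of letters, not measured binding sites, and the annotated start may not be the one used in Schwann cells. The genes stood on 19 chromosomes, with 14 of the 86 on chromosome 7. At least 1 small nucleolar RNA, a guide of ribosomal RNA modification that is spliced out with the intron, lay within 30 of the 86 genes (34.9%), against 1.75% of 12958 tested protein-coding genes. The 58 small nucleolar RNAs in all included 5 within Rpl4 and 4 within Rpl13a.

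The question of how much of the mRNA pool these genes take was addressed first. In immature cells they took 6.40% of gene reads on plate 1 and 7.21% on plate 2 (6.80% ± 0.572, SD, n = 2). Intermediate cells were at 6.42% and 7.06% (6.74% ± 0.453), and cycling cells at 5.44% and 5.996% (5.72% ± 0.393). Myelinating cells were lowest, with 3.93% and 4.32% (4.12% ± 0.277). The myelinating sums lay below all others, whereas immature and intermediate sums overlapped. Within plates, the myelinating share was 0.614 and 0.599 times the immature share, and on both plates 0.612 times the intermediate share. The difference between myelinating and immature cells was larger than the spread between plates, but an exact permutation test of 2 against 2 sums cannot go below p = 0.333, the value it gave (two-sided), also for cycling against immature cells. For intermediate against immature cells it gave p = 1.

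**Figure D1:**
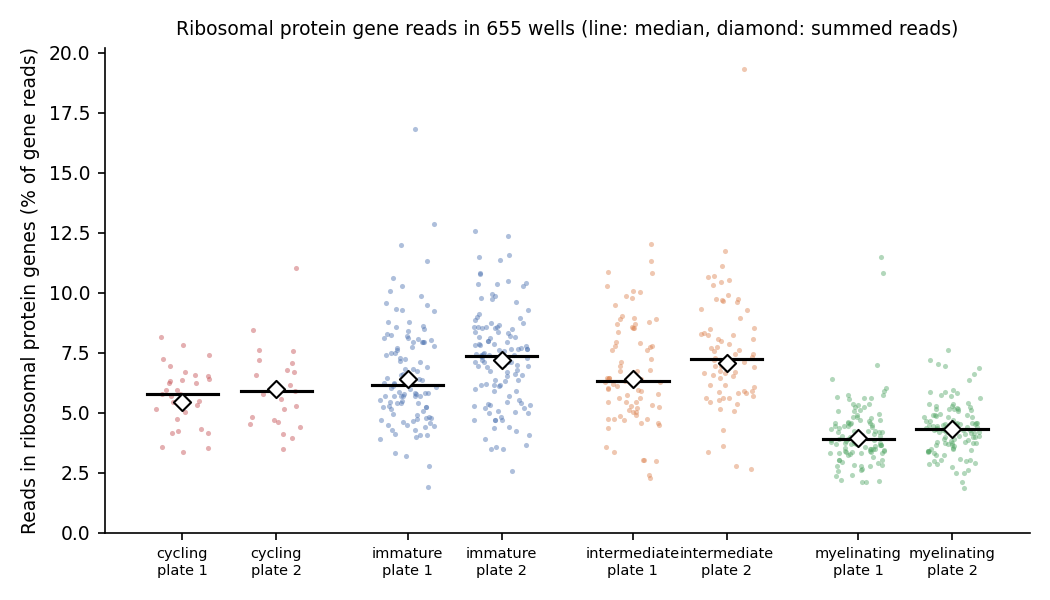
Percentage of each well's gene reads that fell in the 86 ribosomal protein genes (y axis), for the 4 states on each plate (x axis). Points are wells, lines are medians over wells and diamonds the share in the summed reads. The myelinating wells centre on 3.92% and 4.33%, below the other 6 groups, whose medians lie between 5.79% and 7.37%.

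The same order was seen in the wells. The median share per well was 6.16% and 7.37% in immature cells, 6.33% and 7.24% in intermediate cells, 5.79% and 5.89% in cycling cells and 3.92% and 4.33% in myelinating cells, on plates 1 and 2. Single wells were broad, from 1.93% to 16.8% in immature cells of plate 1 and from 1.87% to 7.61% in myelinating cells of plate 2. The number of the 86 genes detected per well hardly moved, with a median of 81 or 82 in every state and plate. Myelinating wells were sequenced more deeply, with a median of 819462 and 719230 gene reads against 476354 and 418998 in immature wells. Thinned to 100000 reads per well, the mean shares were 4.21% in myelinating and 6.85% in immature cells.

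Reads of myelin genes enter the total from which such a share is taken. A list of 11 myelin genes took 16.8% and 16.99% of reads in myelinating cells, against 5.40% and 5.45% in intermediate, 1.46% on both plates in immature and 1.09% and 0.950% in cycling cells. When these genes were left out of the total, the ribosomal protein share of myelinating cells was 4.72% and 5.205% (4.96% ± 0.342) and that of immature cells 6.49% and 7.31% (6.90% ± 0.581). The within-plate ratio was then 0.727 and 0.712 in place of 0.614 and 0.599. Intermediate cells were then at 6.78% and 7.46% (7.12% ± 0.482), 1.04 and 1.02 times the immature share, above it on both plates, although the sums of the states still overlapped (exact permutation test, two-sided, p = 0.667). The mitochondrially encoded reads were between 2.33% and 2.99% in all 8 sums.

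Plate 2 had the higher ribosomal protein share in each of the 4 states, and of 80 genes with at least 100 CPM on average, 65, 73, 65 and 71 were higher on plate 2 in cycling, immature, intermediate and myelinating cells. The cause of this plate difference was not tested. A list of 6 fibroblast markers (Dcn, Lum, Pdgfra, Col1a1, Col3a1, Fbln1) was found, with at least 5 reads of at least 3 genes, in 51 of 655 wells (7.79%). These wells were 8 and 10 of the cycling, 8 and 14 of the immature, 4 and 4 of the intermediate and 1 and 2 of the myelinating wells. The list's reads ranged from 0.225% to 0.355% in cycling and immature sums, from 0.0883% to 0.114% in intermediate and from 0.0283% to 0.0303% in myelinating sums. Without these wells the ribosomal protein share was 6.36% and 7.16% in immature and 3.92% and 4.30% in myelinating cells, so the difference was as large.

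Levels were then compared between genes per length, as CPM per kb of the representative GENCODE mRNA, averaged over the 8 sums. Of the 86 genes, 83 passed edgeR's filter on low counts. Rpl3l and Rpl39l, expressed mainly in muscle and in testis, had 0 reads in all wells, and the testis paralog Rpl10l had 0 reads in the retained wells. For these 3 genes a count of 0 in 655 wells allows up to 0.458% of wells with a read. The highest levels were those of Rplp0 (3381 CPM per kb), the base of the stalk that recruits elongation factors, Rpl41 (3031), the smallest ribosomal protein, Rps27 (2390), Rps18 (2305) and Rpl13 (2210). The lowest were Rps27rt (43.0), Rpl7l1 (74.2), Rps19bp1 (76.1), Rps20 (156) and Rpl12 (207). The annotated mRNAs of Rps20 and Rpl12 used here were 3706 and 1242 bases long, and shorter mRNAs would give higher levels. None of Rps27rt, Rpl7l1 and Rps19bp1 is among the 77 structural genes, and Rpl7l1 and Rps19bp1 were detected in 325 (49.6%) and 300 (45.8%) of 655 wells, whereas the 5 highest genes were detected in all 655. Genes whose proteins stand in equal number in the ribosome differed widely in this level, which depends in part on the annotated length.

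**Figure D2:**
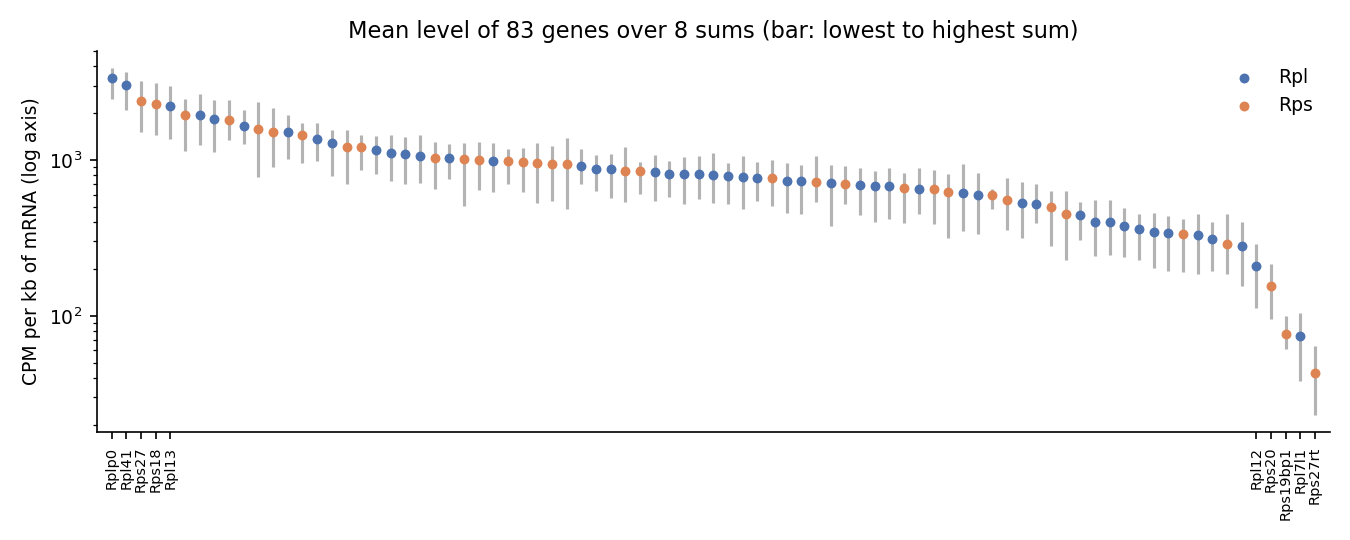
Level of each of the 83 tested genes in CPM per kb of mRNA (y axis, log scale), ordered from highest to lowest (x axis, named for the 5 highest and 5 lowest), as the mean over 8 sums with a bar from the lowest to the highest sum. Rplp0 leads with 3381, and only Rps19bp1, Rpl7l1 and Rps27rt lie below 100.

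Reads could be lost to near-identical copies, since how reads that map to several places were counted is not given in the sources used here. Of the 86 mRNAs, 29 had at least 1 other GENCODE gene with 95% identity over 80% of their length, up to 31 for Rpl7a, and 189 of the 203 such genes were pseudogenes. The levels of the 14 tested genes with 6 or more such copies had a median of 914 CPM per kb, against 720 for the 54 genes without a copy. The annotated mRNA length enters both the level and the copy limit, so these medians cannot show whether reads were lost. Only 9 pseudogenes of the family had a row in the table, although GENCODE vM21 names 300. Rps27rt, an intronless copy, matched Rps27 at 100% over 341 bases, so that their reads can be split only by few positions. It held 1.51% to 2.43% of the Rps27 reads in every sum, and its level is uncertain. Exons of 23 genes overlapped another gene, among them Rps25, which overlaps Ccdc84 and Trappc4. Smart-Seq2 does not mark the strand, and reads of such overlapping genes cannot be told apart.

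Myelinating cells were next compared with intermediate cells, the last step along the 2 myelin genes. Of the 83 tested genes, 82 had a negative log2 change, with a median of -0.48 against 0.00 for all genes tested, and 81 were lower on both plates. Rpsa, a protein of the small subunit that also serves as the laminin receptor of the cell surface, and Rps3a1, which lies near the mRNA exit of the small subunit, fell. These 2 of 83 passed edgeR's quasi-likelihood test with Benjamini-Hochberg adjustment over all genes at 0.05, and 0 passed in the upward direction by edgeR, DESeq2 or limma. Of all genes tested, edgeR called 0.425% lower and 0.346% higher. At an unadjusted p under 0.05, 47 of the 83 were lower and 0 higher, against 4.69% and 4.64% of all genes. DESeq2 called 21 lower, against 2.29% of all genes, and limma 39, against 1.58%. In 72 of 83 genes, both myelinating sums lay below both intermediate sums after scaling by TMM, which was true of 20.1% of all genes.

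Rpsa was at 506 and 519.9 CPM in the myelinating sums of plates 1 and 2, 1004 and 1115 in the intermediate, 1195 and 1144 in the immature and 1293 and 1183 in the cycling sums. The myelinating sums lay far below all others, and the other states were close to each other. On the TMM scale it fell by 0.80 from intermediate to myelinating cells (log2, SE 0.124, edgeR adjusted p = 0.0228). Rps3a1 was at 532 and 586 CPM in myelinating, 1112 and 1145 in intermediate, 1104 and 1205 in immature and 821 and 899 in cycling sums. It was lowest in myelinating and second lowest in cycling cells, without overlap, and fell by 0.77 from intermediate to myelinating cells (SE 0.133, adjusted p = 0.0414).

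Myelinating cells were also compared with immature cells. These comparisons share their myelinating, intermediate or immature sums, so they are not independent of each other. Of 83 genes, 79 had a negative log2 change, with a median of -0.35 against -0.04 for all genes, and 76 were lower on both plates. Rpsa, Rpl27a, Rps3a1 and Rpl13 fell, among 5 of 83 genes called lower by edgeR, against 2.51% of all genes, and 0 called higher, against 2.59%. At an unadjusted p under 0.05, 33 were lower and 0 higher, against 8.6% and 7.65% of all genes. DESeq2 called 16 lower, against 5.67% of all genes, and limma 57, against 8.02%, and neither called any higher. With the plate as a block, 12 of the 83 were called lower, against 2.39% of all genes. Both myelinating sums lay below both immature sums in 53 of 83 genes, against 27.4% of all genes.

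**Figure D3:**
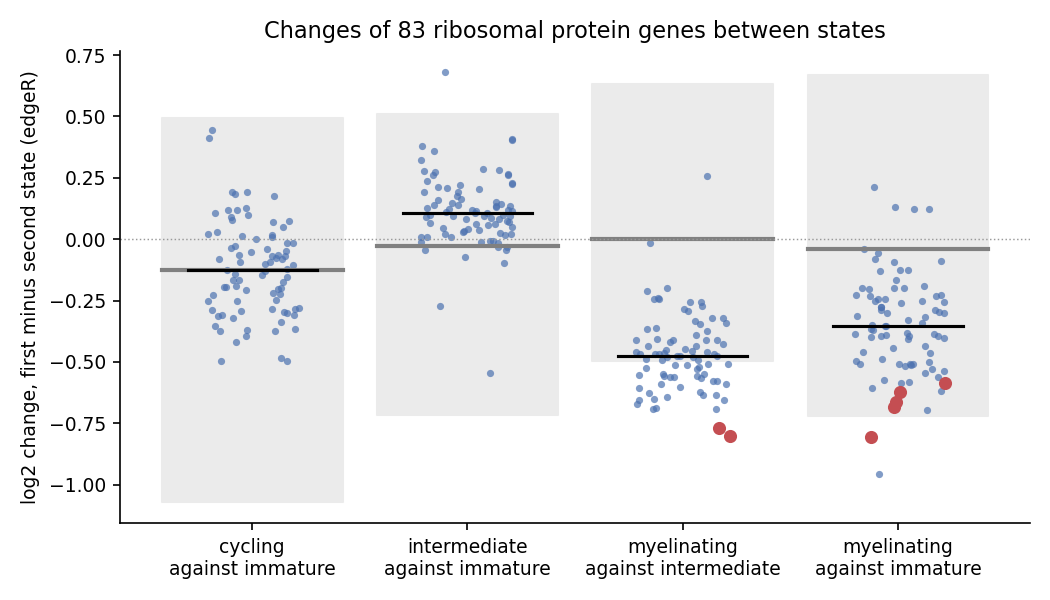
Log2 change of each of the 83 genes in the 4 comparisons (y axis, edgeR with TMM scaling). Points are genes, red where called, black lines are the medians of the 83 genes, grey lines the medians of all genes tested and grey boxes the quartiles of all genes. The black line lies at -0.48 and -0.35 for the comparisons with myelinating cells, and at -0.13 and 0.11 for the others.

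Rpsa fell by 0.81 from immature to myelinating cells (log2, SE 0.124, edgeR adjusted p = 0.00601). Rpl27a, a large-subunit protein, was at 225 and 250.02 CPM in myelinating, 433 and 463 in intermediate, 486 and 508 in immature and 416 and 387 in cycling sums, and fell by 0.68 (SE 0.151, adjusted p = 0.0340). The myelinating sums lay below all others.

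Rpl13, a large-subunit protein, was at 1101 and 1057 CPM in myelinating, 1923 and 2069.8 in intermediate, 1989.7 and 2338 in immature and 1738 and 1574 in cycling sums. Intermediate and immature sums overlapped, and the myelinating sums were lowest. It fell by 0.62 (SE 0.126, adjusted p = 0.0227). Rps3a1 fell by 0.66 (SE 0.133, adjusted p = 0.0220). Of the named called genes, Rps3a1 and Rpl13 each had 6 near-identical genes, whereas Rpsa and Rpl27a had none at the limit given. Rpsa was called in all 15 alternative fits, Rps3a1 and Rpl13 in 14 and Rpl27a in 13. With a Pmp22 limit of 20000 CPM 1 of the 83 genes was called, against 2.07% of all genes called lower.

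**Figure D4:**
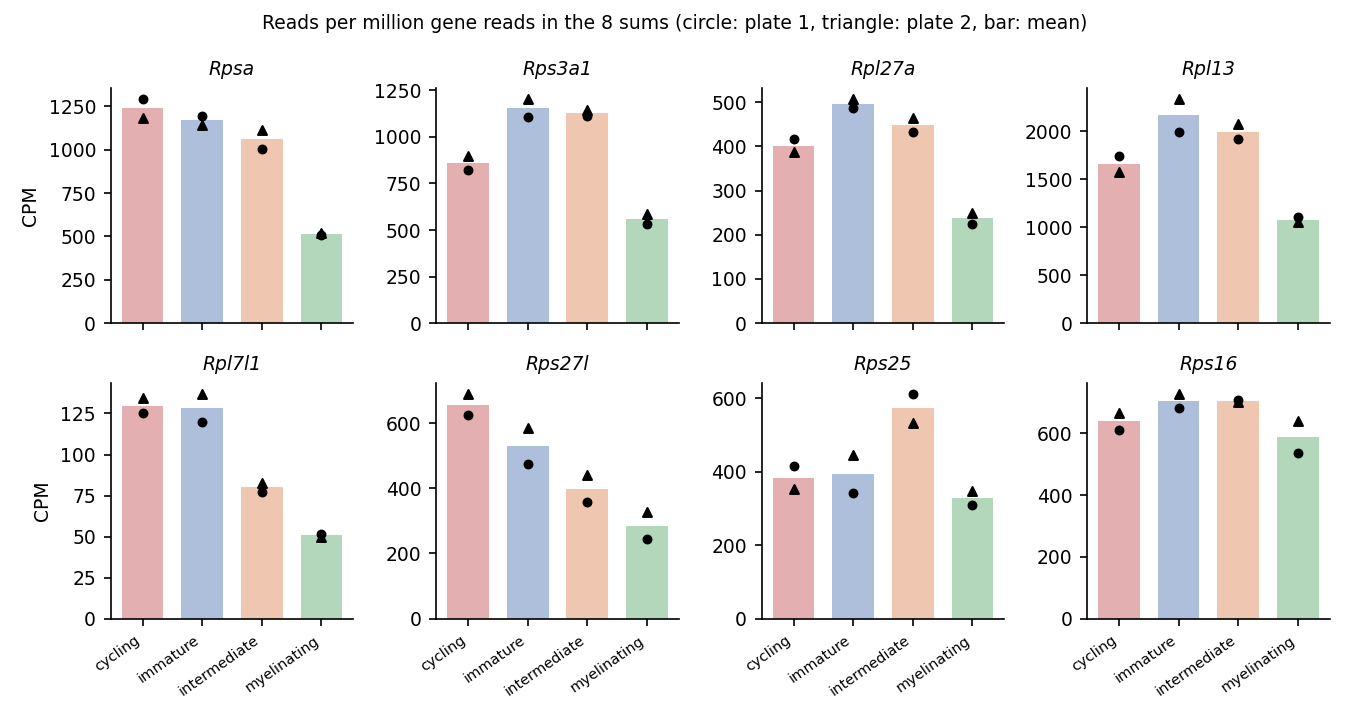
CPM of 8 ribosomal protein genes (y axes from 0) in the 4 states (x axes), with circles for plate 1, triangles for plate 2 and bars for their mean. Rpsa, Rps3a1, Rpl27a and Rpl13 are lowest in myelinating cells, Rpl7l1 is lower in intermediate than in immature cells and lowest in myelinating cells, Rps27l steps down from cycling to myelinating cells, Rps25 is highest in intermediate cells, and Rps16 spans 537 to 727 CPM over all 8 sums.

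The scaling decides the absolute size of these changes. By library totals, the median of all genes moved to -0.42 in myelinating against immature cells and that of the 83 genes to -0.74, and 40 of the 83 were called lower, against 4.98% of all genes. With totals without myelin genes the medians were -0.18 and -0.49, and 16 of the 83 were called lower, against 3.02%. Relative to the median of all genes, the 83 genes stood at -0.31 under TMM and under both other scalings. A scaling shifts all genes of a comparison by about the same amount, so this difference is not a separate check.

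The edges of the family's range are given next. Rpl7l1, a nucleolar factor of large-subunit assembly related to Rpl7, was at 51.7 and 49.8 CPM in myelinating, 77.3 and 82.8 in intermediate, 119.9 and 137 in immature and 125 and 134 in cycling sums. Cycling and immature sums overlapped, and the others stepped down without overlap. Its change of -0.96 from immature to myelinating cells was the most negative of the 83, but with an SE of 0.238 it did not pass the test (edgeR adjusted p = 0.0595, and 0.0046 to 0.0760 over 15 alternatives). Its reads were 15.4% and 15.1% of those of Rpl7 in cycling cells, 10.003% and 10.03% in immature, 6.67% and 6.04% in intermediate and 6.04% and 5.84% in myelinating cells.

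At the other end, 4 genes had a change above 0 in myelinating against immature cells under TMM, Rps19bp1 (0.21), Rpl22l1 (0.13), Rps25 (0.12) and Rps16 (0.12), none of which passed the test. By library totals these were -0.17, -0.25, -0.26 and -0.26, so their direction flips. Their place in the family, above the median, was the same under both, since a scaling shifts all genes nearly alike. Rps16, a small-subunit protein whose tail reaches the decoding centre, was at 537 and 642 CPM in myelinating, 708 and 703 in intermediate, 684 and 727 in immature and 612 and 666 in cycling sums, and the myelinating and cycling sums overlapped. Rps25, which some viral and cellular internal ribosome entry sites need, was at 308 and 349 CPM in myelinating, 611 and 533 in intermediate, 342 and 445 in immature and 415 and 353 in cycling sums. Its intermediate sums lay above all others.

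**Figure D5:**
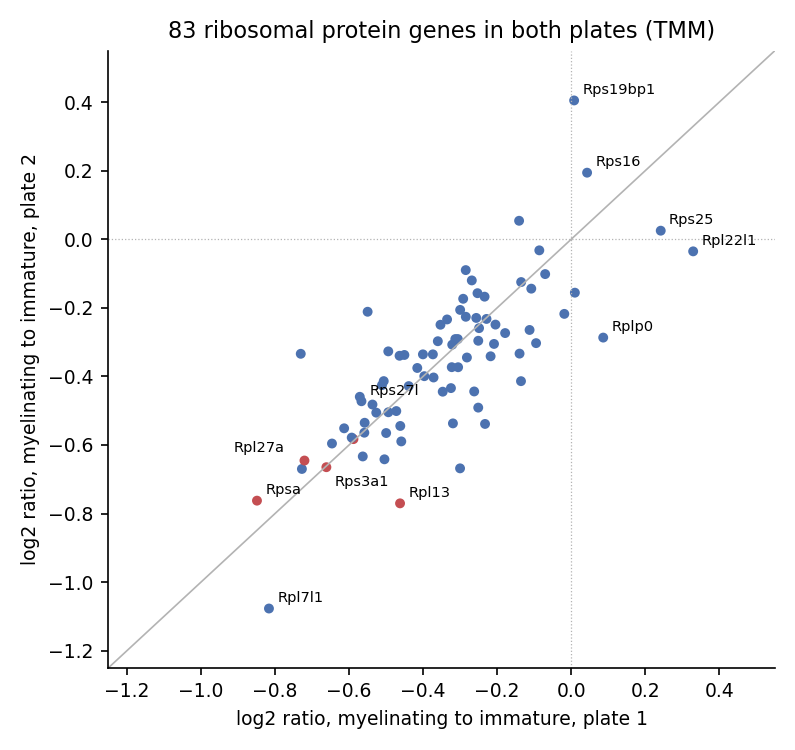
Log2 ratio of myelinating to immature CPM after TMM scaling on plate 1 (x axis) against plate 2 (y axis) for the 83 genes, red where called, with the line of equal values. Most points lie below 0 on both axes, Rpl7l1 is lowest and Rps19bp1, Rps16 and Rps25 lie above 0 on both.

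Across the 83 genes, the log2 ratios of myelinating to immature cells on the 2 plates had r = 0.761, and those of myelinating to intermediate cells r = 0.612. These correlations are across genes, which are not independent replicates, and the plates share the method but no cells.

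The family was then divided by role. The 49 tested Rpl genes had a median change of -0.33 and the 34 Rps genes -0.39 from immature to myelinating cells, with 48 of 49 and 31 of 34 below 0, and 2 and 3 called lower. The ratio of large-subunit to small-subunit reads was 1.62 on both plates in immature cells and 1.76 and 1.62 in myelinating cells, with 1.498 to 1.63 in the other sums. Of the stalk proteins, Rplp0 was at 4006 and 3328 CPM in myelinating, 5285 and 5022 in intermediate, 4949 and 5265 in immature and 4439.7 and 4435 in cycling sums, and made up 10.2% and 7.70% of the family's reads in myelinating cells. Its change from immature cells was -0.09 (SE 0.117, edgeR adjusted p = 0.832), against -0.25 for Rplp1 (0.616) and -0.41 for Rplp2 (0.552), the acidic proteins that dock on it. The Rplp0 ratio was 0.09 on plate 1 and -0.29 on plate 2 (log2), in opposite directions.

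Several members have roles outside translation. Rpl5 and Rpl11, which bind the p53 regulator Mdm2 when ribosome assembly is disturbed, changed by -0.46 (SE 0.169, edgeR adjusted p = 0.214) and -0.58 (SE 0.147, adjusted p = 0.0622) from immature to myelinating cells. Rpl11 was at 331 and 373 CPM in myelinating and 665 and 709.6 in immature sums, without overlap. Rps6, whose phosphorylation is the usual readout of mTORC1 signalling, was at 447 and 479 CPM in myelinating, 799.5 and 874 in intermediate, 733 and 804 in immature and 616 and 614 in cycling sums, with overlap only between intermediate and immature cells. Its change was -0.35 (SE 0.135, adjusted p = 0.236). These are mRNA levels and say nothing of phosphorylation. Rps27a, which encodes ubiquitin fused to a small-subunit protein, changed by -0.34 (adjusted p = 0.352). Ribosomal protein genes that carry other symbols, such as Fau, a fusion of a ubiquitin-like and a small-subunit protein, and Rack1, a scaffold on the small subunit, were 3 in the list used. All 3 were below 0 (median -0.41), with 0 called by edgeR or DESeq2, 2 called lower by limma and 1 lower at an unadjusted p under 0.05. Of all genes, limma called 8.02% lower, and 8.6% were lower at that unadjusted limit by edgeR.

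Intermediate cells were compared with immature cells, the step at which Ncmap appears. Of 83 genes, 70 had a change above 0, with a median of 0.11 against -0.03 for all genes, and 54 were higher on both plates. None was called in either direction by edgeR, which called 0.972% of all genes higher and 1% lower, or by limma. DESeq2 called 2 higher, against 3.03% of all genes. At an unadjusted p under 0.05 there were 2 higher and 1 lower, against 5.11% and 5.8% of all genes. Both intermediate sums lay above both immature sums in 23 of 83 genes, against 20.1% of all genes, and below them in 1, against 23%. The direction depended on the scaling. By library totals, 29 of 83 genes were above 0 with a median of -0.03, and with totals without myelin genes 51 were above 0 with a median of 0.03. Relative to all genes the median was 0.13 under each, a difference that a change of scaling can hardly alter. Rps25 had the largest value, 0.68 (SE 0.188, edgeR adjusted p = 0.148), with log2 ratios of 1.00 and 0.38 on plates 1 and 2. Rplp1 was at 0.41 (adjusted p = 0.468), Rps3, which also acts in DNA repair, at 0.38 (0.230) and Rpl7l1 at -0.54 (0.448).

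Cycling cells were compared with immature cells, to ask whether these genes stand higher relative to other genes in dividing cells. The values are relative levels, and the amount of mRNA per cell was not measured. Of 83 genes, 61 had a change below 0, but the median of -0.13 equalled that of all genes, -0.13. No gene of the family was called by edgeR in either direction, against 1.23% of all genes called higher and 1.29% lower, nor by DESeq2. Limma called 3 lower, against 3.15% of all genes. At an unadjusted p under 0.05, 8 were lower and 0 higher, against 9.28% and 6.07% of all genes. Both cycling sums were below both immature sums in 27 of 83 genes, against 27.1% of all genes, and above them in 5, against 17.1%. With DESeq2's size factors in edgeR, 47 of 83 were below 0, and by library totals 73. The most negative were Rpl29 (-0.50, edgeR adjusted p = 0.172), Rpl27 (-0.50, 0.230) and Rpl7 (-0.49, 0.123). The most positive were Rps19bp1 (0.45, 0.492) and Rps27l (0.41, 0.366), neither of them a core structural gene.

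The paralogs are given beside their partners. Rps27l, a p53-responsive relative of Rps27, was at 623 and 688 CPM in cycling, 473 and 586 in immature, 357 and 441 in intermediate and 244 and 326 in myelinating sums. In CPM, the cycling sums lay above all others and the myelinating sums below. After TMM scaling, the myelinating and intermediate sums overlapped. Its reads were 101% and 85.0% of those of Rps27 in cycling cells, 54.4% and 52.7% in immature, 43.0% and 40.0% in intermediate and 46.4% and 44.6% in myelinating cells. The mRNAs were 76.4% identical over 254 bases, so most of their reads can be told apart. No single step of Rps27l passed the test, and from immature to myelinating cells it changed by -0.51 (SE 0.200, edgeR adjusted p = 0.240).

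Rpl22l1, the paralog of Rpl22 with roles in splicing and haematopoiesis, was at 134 and 306 CPM in cycling, 183 and 254 in immature, 234 and 292 in intermediate and 176 and 191 in myelinating sums. The cycling sums of plates 1 and 2 lay on either side of all others. Against Rpl22, its reads were 74.9% and 183% in cycling, 106% and 118% in immature, 139% and 149% in intermediate and 184% and 168% in myelinating cells. Rpl36al, a relative of the X-linked Rpl36a, held 48.3% to 59.3% of the reads of Rpl36a in all sums but 1, the cycling sum of plate 2 (43.6%), with no order between states. Rpl10, Rpl39, Rpl3 and Rps4x, the partners of paralogs that were silent or not analysed here, changed by -0.30, -0.40, -0.33 and -0.39 from immature to myelinating cells, and none was called by edgeR.

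The rest of the translation machinery was described from lists by role. None of 30 ribosome biogenesis genes was called by edgeR in any comparison, also with the plate as a block. From immature to myelinating cells, 27 of 30 were below 0 with a median of -0.83, 10 were lower at an unadjusted p under 0.05, against 8.6% of all genes, and DESeq2 called 3 lower, against 5.67%, and limma 11, against 8.02%. Of 78 genes for mitochondrial ribosomal proteins, which build a separate ribosome, 1 was called higher in that comparison (Mrps12, 0.93, edgeR adjusted p = 0.0289), while 53 were below 0 and the median was -0.18. DESeq2 called 3 of the 78 higher and 1 lower, and limma 0 higher and 6 lower. Of all genes, edgeR called 2.59% higher, DESeq2 5.28% higher and 5.67% lower, and limma 3.31% higher and 8.02% lower. Their share of reads was 0.870% on both plates in immature and 0.623% and 0.661% in myelinating cells. Among 7 elongation factors, Eef1a1, which brings aminoacyl-tRNA to the ribosome and whose mRNA is also a TOP mRNA, fell by 0.52 (adjusted p = 0.0356), from 4807 and 5557 CPM in immature to 2799.7 and 2732 in myelinating sums.

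Among 30 initiation factors, 1 rose and 1 fell from immature to myelinating cells by edgeR. DESeq2 also called 1 higher and 1 lower, and limma 1 higher and 7 lower. Of all genes, edgeR called 2.59% higher and 2.51% lower, DESeq2 5.28% and 5.67%, and limma 3.31% and 8.02%. Eif1, which guards start codon choice, was at 584 and 516 CPM in cycling, 618 and 637 in immature, 1434 and 1428 in intermediate and 2046 and 1936 in myelinating sums. It rose by 1.33 from immature to intermediate cells (edgeR adjusted p = 0.00104) and by 2.05 from immature to myelinating cells (adjusted p = 4.36e-05). In CPM, no sums of different states overlapped, whereas after TMM scaling the cycling and immature sums did. Eif4a1, the RNA helicase of cap-dependent initiation, fell by 0.83 (adjusted p = 0.0264), from 627 and 649 CPM in immature to 293 and 258 in myelinating sums. Of 14 genes for mTORC1 and regulators of TOP mRNAs, Rheb, the GTPase that activates mTORC1, was the 1 gene called by edgeR. It was higher by 0.85 in myelinating (adjusted p = 0.0374) and by 0.90 in cycling (adjusted p = 0.0489) than in immature cells. Of all genes, edgeR called 2.59% and 1.23% higher in these comparisons. DESeq2 called 1 of the 14 higher and 1 lower in each. Limma called 0 higher and 3 lower in myelinating, and 1 higher and 0 lower in cycling cells. In myelinating cells the shares of all genes called higher and lower were 5.28% and 5.67% (DESeq2) and 3.31% and 8.02% (limma). In cycling cells they were 4.36% and 5.39% (DESeq2) and 2.53% and 3.15% (limma). Blocking on the plate gave Rheb an adjusted p of 0.0482 and 0.0669, so that the call in cycling cells was lost, and Cnbp, which binds TOP mRNAs, was called lower in myelinating cells (-0.64, edgeR adjusted p = 0.0401).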

How the data were processed

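Raw read counts per gene were deposited by the authors for 768 wells. The submitters' processing notes name bcl2fastq, STAR 2.6.1c, featureCounts and GRCm38.p5. The treatment of multimapping reads is not given in the sources used here. The members, lists and states were chosen with earlier results of these data known. Of 25700 gene identifiers, 25664 matched GENCODE vM21. Counts were summed per state and plate and fitted with edgeR 4.0.16 (R 4.3.3, TMM, filterByExpr, quasi-likelihood test, 13904 genes, 4 residual degrees of freedom) with Benjamini-Hochberg adjustment at 0.05. Each SE was derived from the test, as the absolute log2 change divided by the square root of the quasi-likelihood F statistic. The 12 genes that define the states were left out of the background. DESeq2 1.42.0 and limma 3.58.1 (log2 of mean CPM with 1 added) were alternatives, as were thinning, other scalings and other limits of the states. Scripts were tested on simulated data. Sums of the same plate come from the same pooled animals, which pairs them by design. Their deviations correlated at -0.0089 to 0.121 over 1976 genes and at 0.419 to 0.650 over 80 members. Named genes were the 5 highest and 5 lowest per kb, up to 3 called changes per direction and comparison, and fixed paralogs, stalk proteins and genes with other roles. Rpl29, Rpl27, Rpl7, Rps3, Rps25, Rps16 and, among the called genes, Rpl13 were named after their values were seen. Values of some members are not reported here. The mRNA length was that of the shortest basic transcript of the best APPRIS class. Copies were searched with BLAST 2.17.0. Start windows came from RefSeq (GRCm38.p6). Counting intervals and limits cover counting error only, and p-values the spread between 2 plates.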

Additional observations from a re-analysis of the deposited data

Results flagged for a closer look

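Wells outside the comparisons also held reads of the ribosomal protein genes. In the 105 wells with under 1500 detected genes that were not corners, 4.09% of gene reads fell in the 86 genes. The 8 corner wells held 6.10% of 158513 gene reads. These wells had no group of their own, and there are no control wells in the labels to compare them with. Pseudogenes of the family named in the table held 45785 reads in the retained wells, of which Rpl10-ps3 had 21333, Rpl27-ps3 13784 and Rpl9-ps6 8551. Whether these reads came from the parent genes was not tested.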

How the results depend on the processing

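With the plates as replicate block, 12 genes were called lower in myelinating against immature cells in place of 5. Of all genes, 2.39% were called lower in place of 2.51%. The counts of called ribosomal protein genes in the other comparisons did not move. Of the mTORC1 and TOP regulator list, the block called 0 in place of 1 in cycling and 2 in place of 1 in myelinating against immature cells. Of all genes, the block called 0.979% higher and 0.965% lower in cycling, and 2.45% and 2.39% in myelinating cells. Percentages in brackets below are the shares of all genes called lower under the same setting. Against intermediate cells, the 2 calls of myelinating cells (0.425%) became 13 by library totals (0.792%) and 21 with DESeq2 (2.29%). They became 10 without the filter on low counts (1.37%), 39 with limma (1.58%) and 11 after thinning (0.81%). With an Ncmap limit of 20 CPM (0.418%) or with cycling wells called from 5 genes (0.374%), 1 was called. Against immature cells, the 5 became 40 by library totals (4.98%), 16 with totals without myelin genes (3.02%) and 16 with DESeq2 (5.67%). They became 9 without the filter (3.63%), 57 with limma (8.02%), 9 after thinning (3.82%) and 1 with a Pmp22 limit of 20000 CPM (2.07%). The block was also added to other scalings, settings chosen after seeing the data. The calls against intermediate and immature cells were then 9 (0.468%) and 26 (2.92%) with totals without myelin genes. With library totals they were 34 (1.07%) and 62 (4.88%). In cycling against immature cells, calls lower went from 0 of 83 to 3 with limma (3.15%) and 2 after thinning (1.98%). They went to 1 with the block and totals without myelin genes (1.12%) or library totals (1.09%). In intermediate against immature cells, DESeq2 called 2 genes higher, against 3.03% of all genes called higher. The myelinating share was 4.963% without myelin genes in the total. Using plate 1 or 2 alone, the shares were 5.44% to 5.996% (cycling), 6.40% to 7.21% (immature), 6.42% to 7.06% (intermediate) and 3.93% to 4.32% (myelinating), and the medians from immature to myelinating cells -0.32 to -0.34. With a plate left out there is no residual degree of freedom, so these are values with no test. The median change from immature to intermediate cells was -0.03 by library totals against 0.11. The other causes were not tested. The number of genes below 0 in myelinating cells did not fall under 79 of 83 in either comparison under the scalings TMM, DESeq2's size factors, library totals and totals without myelin genes.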
